A study of Mus musculus with 2 samples.

Results

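Immediate early genes are transcribed within minutes of a stimulus, without new protein synthesis, and their RNAs are short-lived. Here 9 of them, Fos, Fosb, Jun, Junb, Jund, Egr1, Atf3, Ier2 and Btg2, were followed by name through the single-cell RNA sequencing of mouse testis. All 9 were found among the 36547 genes listed in the 2 count tables, and 8 of them, all but Jund, were among the 2000 features used for clustering. One library was made from testis of 12-week-old C57BL/6 mice without a mutation (WT) and one from Alkbh5-/- mice of the same strain and age (KO). ALKBH5 removes N6-methyladenosine from RNA, and the labels name no other allele or treatment. The study's text names both several mice and 1 mouse per genotype as the source, and the tables do not tag cells by animal, so each genotype is 1 sample and no test between genotypes was possible. All intervals below are exact 95% intervals of counting error within these libraries, and they do not cover variation between mice.

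Fos and FosB proteins pair with Jun, JunB and JunD to form the transcription factor AP-1, and ATF3 is a related leucine zipper protein that often represses. EGR1 is a zinc finger transcription factor, BTG2 slows proliferation and recruits the machinery that shortens poly(A) tails, and IER2 is a small nuclear early response protein. Growth factors, luteinizing hormone acting through cAMP, inflammatory signals and the enzymatic dissociation of tissue are all known to induce such genes. JunD is the least inducible Jun protein and is known to be needed for male fertility in mice. The methods describe a warm enzymatic digestion of the tissue before capture for both genotypes, and induction in the animal and induction during digestion cannot be told apart in these data.

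The WT library held 5756 barcodes and 80283221 UMIs, and the KO library 7012 barcodes and 82056760 UMIs, with a median of 10906 and 9118 UMIs per barcode. There were 45 barcodes present in both. Alkbh5 itself was counted 607 times in WT and 5 times in KO, the direction its genotype label gives. Clustering gave 15 clusters, named from fixed markers, which are called by the marker list with the ending -like. Leydig-like cells numbered 93 in WT and 1166 in KO, Sertoli-like cells 50 and 483, macrophage-like cells 23 and 71, and pooled germ cells 5589 and 5268. The WT Sertoli-like cells were a mixed set. Their median was 9 of 20 Sertoli markers and 17.99% of UMIs from sperm markers, against 15 markers and 0.19% in KO, so the Sertoli results below are followed by values for cells with UMIs of at least 10 markers of their class.

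Promoter sequence is shown for 5 members because all 5 were at least 2-fold higher in KO Leydig-like cells and each holds the TGACG core of the cAMP response element, which CREB and ATF proteins bind. The sequences are the 180 bases before the RefSeq transcription start on GRCm38.p6, 5′ to 3′ on the gene's strand. Capitals mark TGACG on either strand, the full palindrome TGACGTCA and, in Fos, the TATA box TATAAA.
Fos (chr12:85473710-85473889, plus strand): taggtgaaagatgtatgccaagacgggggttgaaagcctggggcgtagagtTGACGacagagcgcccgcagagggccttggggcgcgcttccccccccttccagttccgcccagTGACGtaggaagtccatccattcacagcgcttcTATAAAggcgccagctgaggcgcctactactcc
Fosb (chr7:19310046-19310225, minus strand): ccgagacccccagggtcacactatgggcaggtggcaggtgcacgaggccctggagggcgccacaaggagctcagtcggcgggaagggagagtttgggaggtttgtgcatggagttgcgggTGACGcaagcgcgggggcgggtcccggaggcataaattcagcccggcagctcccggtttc
Junb (chr8:84978749-84978928, minus strand): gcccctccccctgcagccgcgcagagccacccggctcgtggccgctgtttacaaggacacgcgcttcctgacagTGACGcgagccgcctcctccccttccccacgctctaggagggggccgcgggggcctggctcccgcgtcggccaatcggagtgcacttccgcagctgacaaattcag
Atf3 (chr1:191183334-191183513, minus strand): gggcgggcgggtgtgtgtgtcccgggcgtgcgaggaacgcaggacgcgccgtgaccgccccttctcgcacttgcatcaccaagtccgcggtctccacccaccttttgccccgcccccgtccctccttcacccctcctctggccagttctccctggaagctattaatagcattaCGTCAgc
Btg2 (chr1:134079156-134079335, minus strand): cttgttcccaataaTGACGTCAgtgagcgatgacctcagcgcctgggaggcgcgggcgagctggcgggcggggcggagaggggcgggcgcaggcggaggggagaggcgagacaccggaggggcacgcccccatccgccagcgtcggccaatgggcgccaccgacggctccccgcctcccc
RefSeq promoters were matched for 7 of the 9 members, the others being Ier2 and Egr1. Over the 250 bases before the start, TGACG was present on either strand in 5 of the 7 (Fos, Fosb, Junb, Atf3 and Btg2) and in 17.8% of all 32851 promoters. TGACGTCA, which contains that core on both strands, was present in Btg2 and in 1.55% of all promoters, and TATAAA in Fos and in 12.4%. The EGR site GCGNGGGCG was found in Fosb and Btg2, against 4.70% of all promoters. Neither the AP-1 site TGANTCA (6.75% of all promoters) nor the serum response CArG box (1.47%) was found in these 250 bases of any of the 7. Sites further upstream were not searched, so such sites may lie there. These matches describe letters in this window and say nothing of binding. The 5 promoters shown were chosen by ratio and TGACG together, so they are no support for a link between them.

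On GRCm38 with the GENCODE M21 annotation, all 9 are protein-coding genes. Fos lies on chromosome 12 from 85473890 to 85477273, Fosb on chromosome 7 from 19302696 to 19310051 and Jun on chromosome 4 from 95049034 to 95052222. Junb, Jund and Ier2 are all on chromosome 8, Atf3 and Btg2 on chromosome 1 and Egr1 on chromosome 18. Jun, Jund and Ier2 each have 1 exon. Jun overlaps the antisense gene Junos, Jund the antisense gene Gm11175 and Junb the gene Prdx2 on the opposite strand. Whether the counting used strand is not given in the sources used here, so reads of these overlapping pairs may not be told apart.

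In both libraries the members were mainly RNAs of the somatic cells. Levels are given as CPM, the UMIs of a gene per 1000000 UMIs of the cell class. Summed over the 9 members, WT held 3628 CPM in Leydig-like, 1221 in Sertoli-like and 4888 in macrophage-like cells, against 28.1 in pooled germ cells. KO held 7879, 3076 and 5853 CPM in the same somatic classes and 87.1 in pooled germ cells. Macrophage-like cells were thus the highest of these classes in WT and Leydig-like cells the highest in KO. The 24 endothelial-like cells of KO were higher still, at 24590 CPM (23822 to 25375), with Fos alone at 9585 CPM. WT had 1 endothelial-like cell, so no comparison between genotypes was made there.

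The members differed in how far they were restricted to somatic cells. Fos was 530-fold higher in Leydig-like cells than in pooled germ cells of WT and 126-fold higher in KO. Jund was only 7.997-fold and 11.8-fold higher. Between classes Jund was also the member least like the others, with a mean Pearson r of 0.78 against 0.91 to 0.95 for the other members, over 21 class and library units of at least 20 cells. That r is on log2(CPM + 1) and the units share 2 libraries, so it is a description.

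**Figure D1:**
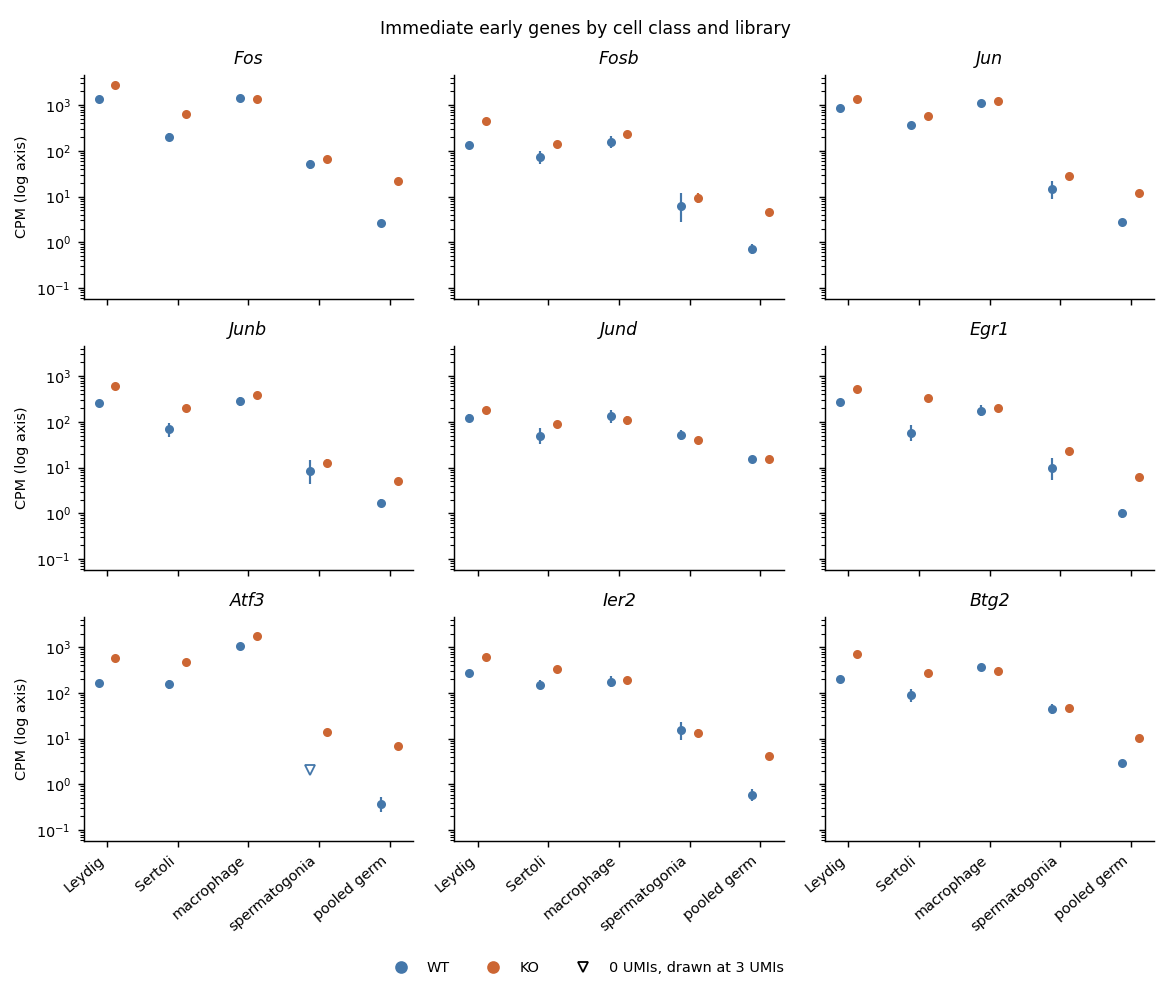
CPM (log axis) of each member in 5 cell classes of the WT and KO libraries, with exact 95% counting intervals, often smaller than the point. The open triangle marks Atf3 in WT spermatogonia-like cells, with 0 UMIs, drawn at the level of 3 UMIs. Somatic classes sit above pooled germ cells for all members, least so for Jund. In WT, Jund is at 50.1 CPM in Sertoli-like and 51.9 CPM in spermatogonia-like cells.

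Leydig cells, the interstitial cells that make testosterone, showed higher levels of every member in KO. The sum was 3628 CPM (3510 to 3748) in WT and 7879 CPM (7824 to 7933) in KO, a log2 ratio of 1.12 (1.07 to 1.17). By the size rule used here in place of a test, a CPM ratio of at least 2 among genes with a mean of at least 10 CPM, 6 of the 9 were higher in KO and 0 were lower. Over all 7528 genes that passed the same level in these cells, 3.0% were at least 2-fold higher and 9.21% at least 2-fold lower, and the median log2 ratio was -0.10 against 1.19 for the members.

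Atf3 had the largest ratio in Leydig-like cells, with 161 CPM in WT and 592 in KO, a log2 ratio of 1.88 (1.65 to 2.11). Btg2 was close to it, at 197 and 709 CPM (log2 1.85, 1.64 to 2.06), and Fosb stood at 131 and 450 CPM (log2 1.78, 1.53 to 2.04). The intervals of these members overlap, so their order is not resolved.

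Junb was at 255 CPM in WT and 613 in KO (log2 1.27, 1.09 to 1.46). Ier2 was at 274 and 625 CPM (log2 1.19, 1.02 to 1.37). Fos, the most abundant member, was at 1370 and 2774 CPM (log2 1.02, 0.94 to 1.10), and so lay just inside the 2-fold limit. It was outside that limit when cells were thinned (log2 0.87) or given equal weight (0.83). The same held without integration (0.996) and without the barcodes shared by both libraries (0.997). In each of these settings 5 of the 9 were past the limit. Junb was also outside it when cells were thinned, at a log2 ratio of 0.95. In the main values Egr1 lay just outside the limit, with 269 and 530 CPM (log2 0.98, 0.80 to 1.16).

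The smallest ratios were those of Jun and Jund. Jun was at 848 CPM in WT and 1401 in KO (log2 0.72, 0.62 to 0.83), and Jund at 123 and 185 CPM (log2 0.59, 0.33 to 0.86). Both intervals lie below those of Atf3, Btg2 and Fosb, but they do not cover variation between cells. The 161 WT UMIs of Atf3 lay in 20 of 93 cells, so this order is not resolved either.

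**Figure D2:**
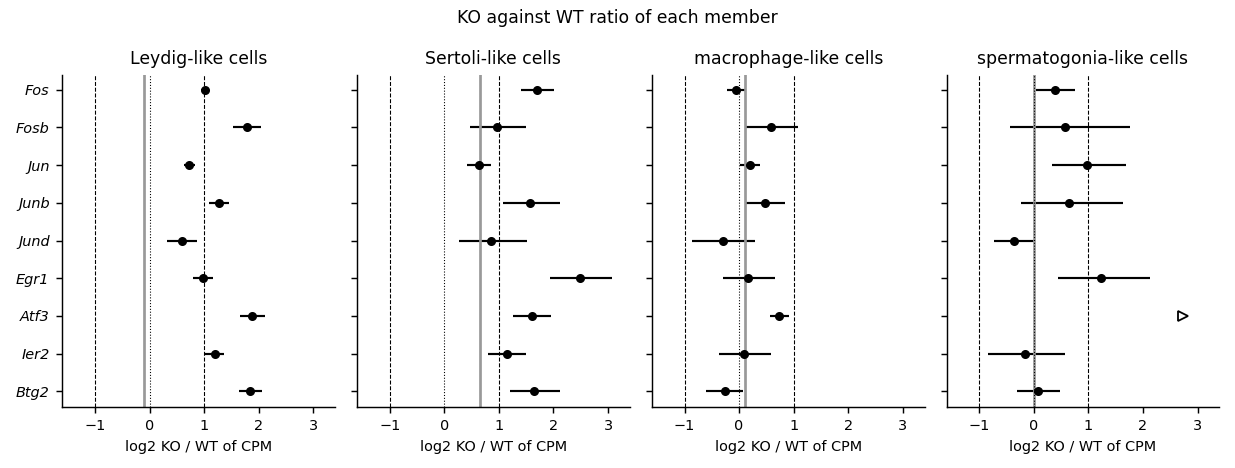
Log2 ratio of KO to WT CPM for each member in 4 cell classes, with exact 95% counting intervals; dashed lines mark 2-fold, the dotted line 0 and the grey line the median of all genes tested in that class. In Leydig-like cells all members lie right of the grey line at -0.10, whereas in Sertoli-like cells the grey line itself is at 0.66.

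The difference in Leydig-like cells was spread over the cells. Per cell, the median was 25.3 member UMIs per 10000 in WT (10th to 90th percentile 3.45 to 100) and 71.3 in KO (13.9 to 173). Of the 1166 KO cells, 82.7% lay above the WT median. The tenth of cells highest in members held 34.5% of the member UMIs in WT and 26.9% in KO.

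Detection differed in the same direction at equal depth. After thinning every cell to 5729 UMIs, which left 86 WT and 988 KO cells, the median Leydig-like cell had UMIs of 5 members in WT and of 8 in KO. All 9 were found in 3.49% of WT cells and in 27.1% of KO cells. Fos was found in 82.6% of WT and 96.0% of KO cells, Atf3 in 18.6% and 57.2%, and Jund in 44.2% and 57.3%. Before thinning, 89.2% of the WT cells had a Fos UMI. In pooled germ cells at the same depth (medians of 10979 and 9596 UMIs before thinning), Fos was found in 1.07% of WT and 7.22% of KO cells.

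Members were detected together in the same cells. Over the 36 pairs of members, the median Pearson r across thinned Leydig-like cells was 0.50 in WT and 0.52 in KO, and in both libraries the pair with the highest r was Fos and Jun, at 0.71 and 0.73. Jund was again least like the rest, with a median r of 0.30 and 0.34. Cells of 1 library are not replicates, and these values describe them only. Depth moved with the sum: its r with the log UMIs of the cell was -0.43 in WT and -0.24 in KO, the median depth was 9977 and 7871 UMIs, and the median mitochondrial share was 7.42% and 7.995%. Within each library, r of the sum with the mitochondrial share was -0.30 in WT and -0.13 in KO. The part of the mitochondrial share in the difference between the libraries was not tested. Thinned to equal depth the log2 ratio of the sum was 0.96, and with every cell given equal weight it was 0.93.

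**Figure D3:**
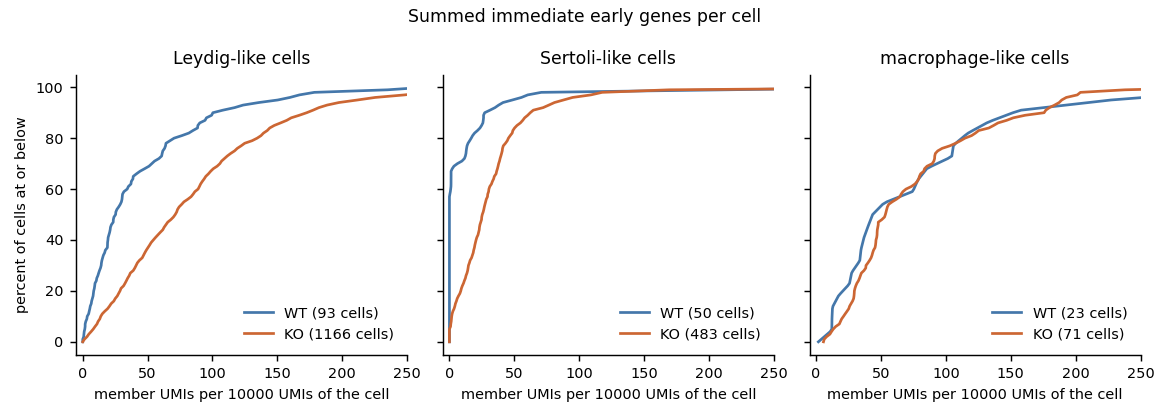
Cumulative percent of cells (vertical axis) by member UMIs per 10000 UMIs of the cell (horizontal axis, shown to 250) for WT and KO. The KO curve lies to the right in Leydig-like and Sertoli-like cells, with medians of 71.3 against 25.3 and 25.3 against 0, while the macrophage-like curves run close together.

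The Leydig-like cells were checked against their markers. Of 19 Leydig markers in the tables, 18 had UMIs in each library, with a summed level of 80095 CPM in WT and 102071 in KO. Sperm markers stood at 16344 and 13325 CPM, Sertoli markers at 5812 and 5944, and macrophage markers at 177 and 255. In the 80 WT and 1110 KO cells with at least 10 Leydig markers, the sum of members had a log2 ratio of 1.17 (1.12 to 1.22). There 7 of the 9 were at least 2-fold higher, Egr1 being added at 1.03, beside 3.58% of all genes.

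Sertoli cells, which nurse the germ cells, also had higher levels in KO, but so did many other genes. The sum was 1221 CPM (1124 to 1324) in WT and 3076 CPM (3027 to 3127) in KO, a log2 ratio of 1.33 (1.21 to 1.45). The 5 WT cells highest in members held 64.3% of the WT member UMIs, and the 49 highest KO cells 30.8% of those in KO. After thinning, 61.4% of WT and 5.92% of KO cells had no member UMI. Before thinning, Fos was found in 5 WT cells (96 UMIs) and Atf3 in 3 (74 UMIs). The WT level thus rested on few cells, and the counting intervals do not cover variation between cells. Again 6 of the 9 were at least 2-fold higher and 0 lower, here beside 36.3% of all genes higher and 17.7% lower, with a median log2 ratio over all genes of 0.66. The sperm markers named above, 162200 CPM in WT and 37300 in KO, moved with this result, as did the median mitochondrial share, 6.004% and 13.3%, and their part in it was not tested.

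The members behaved differently once Sertoli-like cells with few Sertoli markers were left out. In the remaining 24 WT and 431 KO cells, 4 of the 9, Fos, Egr1, Atf3 and Btg2, were at least 2-fold higher, beside 14.0% of all genes. Their median was 7.56 member UMIs per 10000 in WT and 26.7 in KO. Fos was counted 12 times in WT and 2671 times in KO, or 52.0 and 614 CPM (log2 3.56, 2.76 to 4.52). For Atf3 the counts were 3 and 1977, and its log2 ratio of 5.13 has an interval from 3.58 to 7.41.

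Jun was not higher in KO in the cells with at least 10 Sertoli markers. It was at 723 CPM in WT and 608 in KO (log2 -0.25, -0.48 to -0.02), whereas over all Sertoli-like cells its log2 ratio was 0.63 (0.41 to 0.86). Jund was at 86.6 and 92.2 CPM (log2 0.09, -0.56 to 0.82) and Ier2 at 286 and 360 CPM (log2 0.33, -0.02 to 0.71). The direction of Jun in Sertoli-like cells thus turned on the WT cells with few Sertoli markers.

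Macrophages, which lie beside Leydig cells in the interstitium, had high levels in both libraries. The sum was 4888 CPM (4641 to 5145) in WT and 5853 CPM (5678 to 6033) in KO, a log2 ratio of 0.26 (0.17 to 0.35). None of the 9 was 2-fold different, beside 18.5% of all genes higher and 12.2% lower, from 23 and 71 cells. Atf3 had the largest ratio, with 1059 CPM in WT and 1770 in KO (log2 0.74, 0.56 to 0.92), and Fos was at 1437 and 1384 CPM (log2 -0.05, -0.22 to 0.11). The sum's ratio was -0.13 without integration of the libraries, so its direction is not settled.

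Germ cells held little of these RNAs, and the highest germ class was spermatogonia-like in WT and early spermatocyte-like in KO. Early spermatocyte-like cells, 66 in WT and 267 in KO, held 115 CPM (88.3 to 148) and 319 CPM (294 to 346) of the summed members, with 75.3% of the KO UMIs in the 27 cells highest in them. In the 158 WT and 920 KO spermatogonia-like cells the sum was 201 CPM (179 to 226) in WT and 255 CPM (243 to 266) in KO. Of the 7 members that passed the level, 1, Egr1, was 2-fold higher, with 14 and 168 UMIs (log2 1.22, 0.44 to 2.13), beside 1.96% of all genes higher and 5.55% lower. It passed through KO alone, its WT level being 9.68 CPM, so this count is no support for a difference. Fosb and Atf3 did not pass. The counts of Atf3 were 0 (WT) and 102 (KO), or at least 6.62-fold higher if WT is set at a floor of 3 UMIs. The counting interval of the log2 ratio starts lower, at 2.40.

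In later germ cells Fos and Jund took different courses. Fos was at 0.97 CPM in WT late spermatocyte-like cells and 17.4 in KO, and at 1.25 and 19.9 in mid-stage round spermatid-like cells. Leydig-like RNA in the ratio given by the Leydig markers would hold 0.448 and 8.64 CPM of Fos in the former class and 1.18 and 8.99 CPM in the latter. Jund was at 0.60 and 2.10 CPM in late spermatocyte-like cells, at 18.2 and 15.3 in the mid-stage spermatids, and reached 39.4 (WT) and 30.03 (KO) in late-stage round spermatid-like cells. In both libraries Jund was thus higher in these spermatids than in spermatocytes of the late class. Btg2 took a like course in WT, from 0.45 CPM in late spermatocyte-like to 2.64 and 6.45 CPM in mid-stage and late-stage round spermatid-like cells. In KO it was at 4.9, 7.66 and 6.67 CPM in these classes, without a further rise in the last. There its KO to WT log2 ratio was 0.05 (-0.57 to 0.66). Junb in sperm-like cells was at 2.52 and 1.77 CPM (log2 -0.51, -1.36 to 0.28). Jun was the leading member of WT late spermatocyte-like cells, with 98 UMIs beside 13 of Fos, and 49 of the 98 fell in each of the class's 2 clusters.

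**Figure D4:**
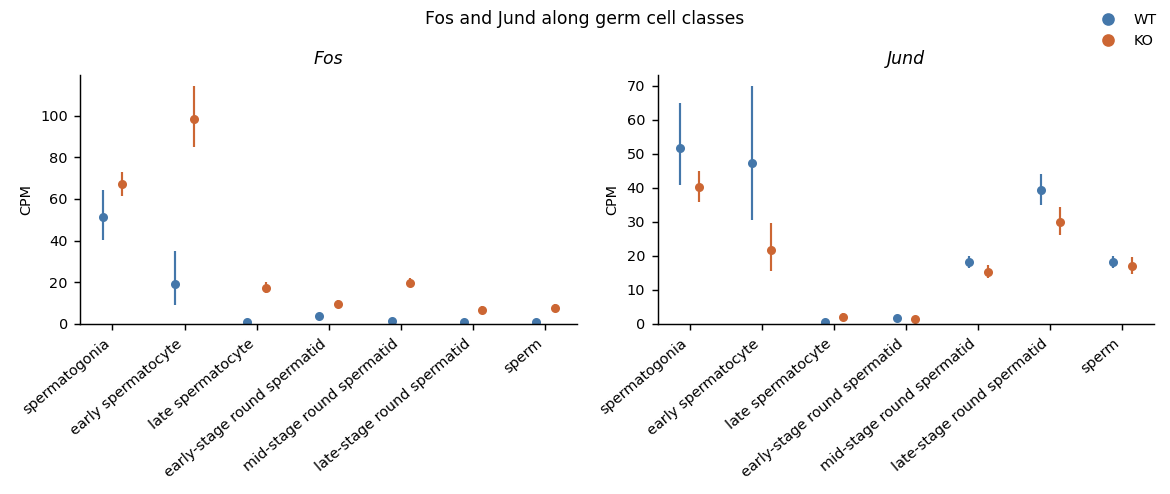
CPM (linear axes from 0) of Fos and Jund in 7 germ cell classes in the order of differentiation, with exact 95% counting intervals. Fos is higher in KO in the later classes, and Jund in WT is at 51.9 and 47.3 CPM in the first classes, low in the next and at 39.4 CPM in late-stage round spermatid-like cells, with KO at 21.8 CPM in early spermatocyte-like cells.

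Over pooled germ cells the sum was 28.1 CPM (26.9 to 29.3) in WT and 87.1 CPM (84.8 to 89.3) in KO. Only Fos and Jund passed the level of 10 CPM, Fos through KO alone (2.59 and 22.0 CPM, log2 3.09, 2.88 to 3.31), and 10.7% of all genes were at least 2-fold higher and 0.617% lower. Jund was at 15.4 and 15.7 CPM (log2 0.02, -0.10 to 0.15). RNA of Leydig cells moved with this difference: Leydig markers in germ cells stood at 0.061% of their level in Leydig-like cells in WT and at 0.282% in KO. If members came with those markers in the ratio of Leydig-like cells, 2.22 and 22.3 CPM of the sum would be seen, and the observed sums were 12.7 and 3.91 times that. Jund made up 15.4 of the 28.1 CPM in WT. Fos alone was 3.09 and 2.81 times its level at that ratio, and in KO only 1.11 times in late-stage round spermatid-like and 1.29 times in sperm-like cells. The median mitochondrial share also moved with the difference, at 0.48% in WT and 1.12% in KO. The part of these in the result was not tested. The spermatogonia-like share of germ cells also differed, and weighting all clusters equally gave a log2 ratio of 0.98 in place of 1.63.

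Other genes of the same response were counted from lists, in Leydig-like cells. The members and lists were chosen with earlier results of these data known, so the counts beside the shares of all genes are a description only. Of 10 other immediate early transcription factors that passed the level, out of 17 listed, 4 were at least 2-fold higher and 1 lower, beside the 3.0% and 9.21% of all genes. With at least 10 Leydig markers per cell, 7 of 10 were higher, beside 3.58% of all genes, and 1 was lower. Of these 7, Nr4a1 passed the level through KO alone (5.78 CPM in WT and 14.7 in KO), so it adds no support. Irf1, an interferon and cytokine-responsive factor, was at 18.04 CPM in WT and 163 in KO (log2 3.18, 2.51 to 3.93). Klf6, Klf10 and Myc followed, with log2 ratios of 1.61, 1.56 and 1.38. Cebpb was lower, at 44.1 and 11.5 CPM (log2 -1.93, -2.45 to -1.40).

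Of 21 tested feedback inhibitors and early response proteins out of 30 listed, 9 were at least 2-fold higher and 2 lower, beside the same shares of all genes. Nfkbiz and Nfkbia, which act on NF-kB, had log2 ratios of 2.5 and 1.75, Ier3 2.33 and Socs3, an inhibitor of cytokine receptors, 1.64. Zfp36, whose protein destabilises AU-rich RNAs, was at 267 and 713 CPM (log2 1.42, 1.24 to 1.601), and Dusp1, a phosphatase of MAP kinases, had 1.38. Cyr61 and Ctgf were lower, at -1.63 and -2.39. In cells with at least 10 Leydig markers 10 of 20 were higher, beside 3.58% of all genes. Of these 10, Trib1 (5.78 CPM in WT and 18.5 in KO) and Errfi1 (8.09 and 31.95) passed the level through KO alone. They add no support to that count. Only Cyr61 was lower (-1.01), while Ctgf had 1 and 18 UMIs and did not pass the level.

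The remaining lists held few genes past the limit in Leydig-like cells. None of 12 stress-inducible heat shock genes was 2-fold different in Leydig-like cells, beside 3.0% of all genes higher and 9.21% lower. Their median log2 ratio was 0.28. None of 6 AP-1 partners and relatives and none of 2 BTG and TOB genes that passed was 2-fold different either. With so few genes, counts of 0 lie near those shares and are no result about these lists. Of 11 upstream kinases and factors, Creb1 was higher (log2 1.03) and Crem lower (-1.03), and in cells with at least 10 Leydig markers Crem was at -0.62 and no longer past the limit. In some other classes heat shock genes were past the limit. At least 2-fold higher in KO were 6 of 12 in macrophage-like cells (18.5% of all genes) and 4 of 9 in pooled germ cells (10.7%). In Sertoli-like cells 6 of 10 were higher (36.3% of all genes), but 0 of 10 with at least 10 own markers (14.0% of all genes). In spermatogonia-like cells 0 of 9 were higher (1.96% of all genes).

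**Figure D5:**
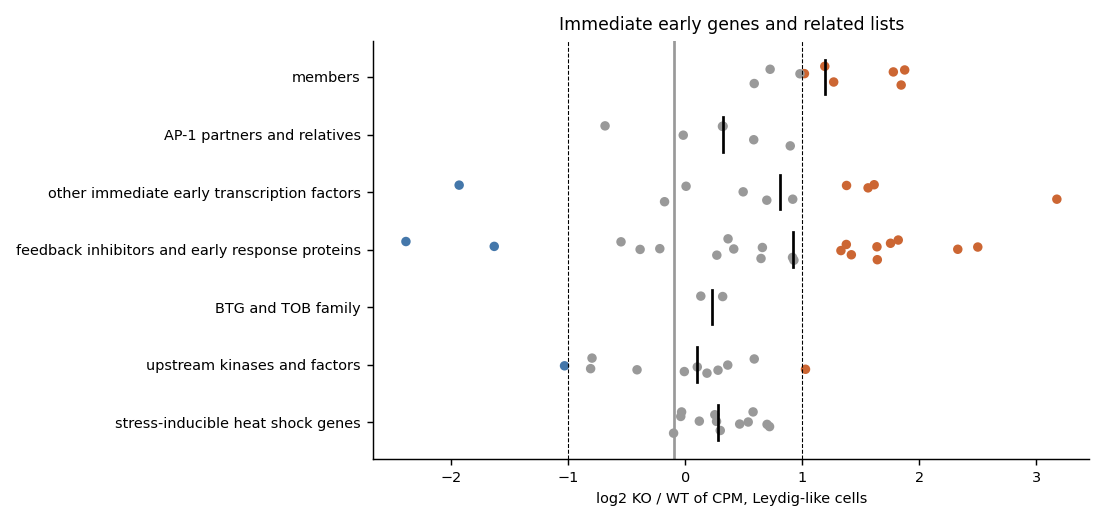
Log2 ratio of KO to WT CPM in Leydig-like cells for each gene that passed the level, by list (points are spread vertically for sight); black bars are list medians, the grey line is the median of all genes at -0.10 and dashed lines mark 2-fold. Orange genes are at least 2-fold higher in KO and blue ones at least 2-fold lower. The heat shock genes hold 0 of either, beside 3.0% of all genes higher and 9.21% lower.

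The genes most like the members were found by correlation. Over the 21 class and library units, Zfp36 had the highest mean r with the 9 members among 9158 genes, at 0.96, followed by Mbnl1, Sh3bgrl, Sat1, Nfkbia, Rps4x, Tspo, Gpx1, Dusp1 and Klf6, at 0.95 to 0.93. Over the 988 thinned KO Leydig-like cells, Zfp36 again led among 4649 genes, with an r of 0.74 with the summed members, and Mt1, Hspa8, Cxcl1, Dusp1, Socs3, Gadd45g, Nfkbia and Irf1 were among those that followed at 0.65 to 0.53. In WT Leydig-like cells, which the choice did not use, r was 0.72 for Zfp36, 0.56 for Dusp1, 0.53 for Socs3 and 0.33 for Mt1. In KO Sertoli-like cells it was 0.55 for Zfp36, 0.61 for Mt1 and Nfkbia and 0.28 for Dusp1. Over 56 thinned KO macrophage-like cells r was 0.58 for Zfp36 and 0.61 for Dusp1, but 0.23 for Mt1 and 0.13 for Nfkbia.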

How the data were processed

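Single-cell libraries of testis were deposited as 1 table of raw UMI counts per genotype, genes by barcodes. According to the methods the authors extracted barcodes and UMIs, trimmed and aligned the reads and counted UMIs per gene and cell. The methods name a human build, while the tables list mouse symbols, so the build behind the counts is not settled. featureCounts 1.6.2 and STAR 2.5.3a are named in the submitters' processing notes. Every barcode had over 500 genes, and all were kept, more than the study counts after its quality control.

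Barcodes were integrated and clustered as the methods state, with Seurat 5.3.0 in R 4.3.3 (2000 features, 20 anchor dimensions, 30 principal components, resolution 0.3, seed 1). A cluster took the class with at least 3 detected markers (UMIs in at least 10% of its cells and a 2-fold higher level than elsewhere) and the highest mean fold, unless another class had more markers among its top 10 genes. Scrublet in scanpy 1.11.5 marked 244 WT (4.24%) and 345 KO (4.92%) barcodes as doublets, which were kept in the main values. UMIs were summed per class and library. With 1 library per genotype, exact Poisson, Clopper-Pearson and conditional intervals of 95% were used, covering counting error only. Cells were thinned to 5729 UMIs, which left out 362 WT and 914 KO barcodes. The size rule was run on simulated Poisson counts with planted changes. These held no variation between mice or between cells, so the run says nothing of either. Named genes were the 9 members, genes of the lists and the 10 most correlated genes of each search, of which 1 is not reported here. The members and lists were chosen with earlier results of these data known. Alternatives were fewer low-gene cells, resolution 0.8, no integration, listed genes left out of clustering, doublets removed, thinning, other totals and weights, and other limits of fold and level.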

Additional observations from a re-analysis of the deposited data

Results flagged for a closer look

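Jund was singled out because its KO to WT log2 ratio had opposite signs in different cell classes, with intervals that exclude 0. It was 0.59 in Leydig-like, 0.86 in Sertoli-like and 1.81 in late spermatocyte-like cells, the last from 8 and 23 UMIs. In Sertoli-like cells with at least 10 own markers it was 0.09 (-0.56 to 0.82), so the Sertoli value does not hold there. It was -1.12 in early spermatocyte-like cells, from 25 and 40 UMIs, -0.25 in mid-stage and -0.39 in late-stage round spermatid-like cells. The difference between classes was not tested, since each genotype is 1 library.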

How the results depend on the processing

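Over the alternatives, 146 of 180 values of the main comparisons stayed within the spread allowed and 34 moved, and 0 reversed a called direction; single members kept their direction in 423 of 440. In Leydig-like cells the sum's log2 ratio of 1.12 was 0.96 when thinned, 0.93 as a mean over cells and 1.17 in cells with at least 10 own markers. In Sertoli-like cells, 1.33 was 1.93 with over 1000 genes per cell, 1.88 at resolution 0.8, 1.50 without integration, 1.68 without listed genes in clustering, 1.92 thinned, 1.10 as a mean over cells and 0.96 with own markers. In macrophage-like cells, 0.26 was -0.13 without integration, 0.067 without listed genes in clustering, 0.044 thinned and -0.073 as a mean over cells, and 1 member was higher and 1 lower when thinned and 1 higher at a 1.5-fold limit. In spermatogonia-like cells, 0.34 was 0.65 thinned and 0.13 as a mean over cells, and the 1 member higher became 2 without integration, without listed genes in clustering, with doublets removed, thinned, without mitochondrial and ribosomal genes in the totals or with no minimum CPM, 3 at 1.5-fold and 0 at a minimum of 50 CPM. In pooled germ cells, 1.63 was 1.48 without integration, 1.50 without doublets, 1.81 thinned, 0.98 with equal weight per cluster and 1.82 as a mean over cells, and the 1 member higher became 0 at 50 CPM and 8 with no minimum. The cause was not tested. The settings with own markers and without shared barcodes were chosen after seeing the data. No paired analysis was possible because each genotype has 1 library, and for the same reason no replicate could be left out.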
